A study of Sus scrofa with 599 samples.

Results

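The 10 genes described here code for secreted proteins at the head of the WNT pathway. They are 4 WNT ligands (WNT6, WNT2B, WNT5A and WNT11), 3 secreted frizzled-related proteins (SFRP1, SFRP2 and SFRP4), 2 dickkopf proteins (DKK2 and DKK3) and the WNT inhibitory factor WIF1. They were chosen by symbol from the table of protein-coding genes (PCGs), in which each of the 10 symbols was found once among 21280 genes. They were also in part selected on the measured TPM of WNT6, which rises in retroperitoneal fat of pigs that lost weight. Changes of the 10 genes in that group against the other diets were therefore not tested, and some are given as values.

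WNT proteins are lipid-modified ligands that bind Frizzled receptors at the cell surface. With the co-receptors LRP5 and LRP6 they stabilise β-catenin, which enters the nucleus and acts on transcription with TCF and LEF factors, and other WNT proteins act through routes that do not need β-catenin. SFRP proteins and WIF1 bind the ligands outside the cell, whereas dickkopf proteins typically act on LRP5 and LRP6. In fat, β-catenin signalling is known for holding preadipocytes back from becoming adipocytes, and WNT6 is one of the ligands known to do so. WNT5A and WNT11 are the best known ligands of the β-catenin-independent routes, and WNT5A has been tied to inflammation of obese fat.

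The tissue came from adult female Bama miniature pigs aged 2 years. Pigs of the normal condition (NC) ate a normal diet, weight-gain pigs (WG) ate a high-fat diet for 22 weeks, and weight-loss pigs (WL) were taken from pigs fed that high-fat diet and were then held at 10% of the normal caloric intake for 12 weeks. WL pigs were therefore sampled later than WG pigs, and weight loss cannot be told apart from the added time. The 4 depots were the greater omentum (GOM), mesenteric fat (MAD) and retroperitoneal fat (RAD), which are visceral, and the upper layer of backfat (ULB), which is subcutaneous. RNA was sequenced after removal of ribosomal RNA, and levels are given as TPM, a unit that corrects for gene length and sequencing depth.

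The RNA libraries numbered 9, 12, 12 and 5 for GOM, MAD, RAD and ULB in NC, 45, 36, 39 and 38 in WG, and 10 for each depot in WL. The study took all depots from each pig, but the labels number the libraries within a group without tying a number to an animal. Depots were therefore fitted as unpaired, and p-values measure the spread between libraries. Each library held 3337098 to 22939420 estimated counts of PCGs. The libraries fell into 2 classes that the labels do not name. In 100 libraries the 13 protein genes of the mitochondrial genome took 11.2 to 38.8% of PCG TPM, and in the other 136 they took 0.653 to 7.65%. The limit between these mitochondria-rich and mitochondria-poor libraries was set at 10% after the data were seen. All 9 NC GOM libraries were rich, 9 of 12 were in NC MAD and in NC RAD, 3 of 5 in NC ULB, 18 of 45, 18 of 36, 16 of 39 and 18 of 38 in WG GOM, MAD, RAD and ULB, and 0 of 10 in every WL depot. In addition, PCGs took under 90% of the TPM of all transcripts in 48 libraries. These were 7 of 9, 2 of 12, 6 of 12 and 2 of 5 in GOM, MAD, RAD and ULB of NC. In the same order they were 4 of 45, 2 of 36, 3 of 39 and 1 of 38 in WG, and 8, 7, 3 and 3 of 10 in WL. Adipocyte marker genes (ADIPOQ, PLIN1, CIDEC, LIPE, LEP and PLIN4) were high in every depot, with a median summed level from 3660 TPM in NC GOM to 9005 TPM in NC MAD.

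Some of the 10 genes differed between the classes within WG, where both could be compared within a depot by edgeR's quasi-likelihood test. A gene was called where the Benjamini-Hochberg adjusted p over all genes tested was below 0.05 and the fold change was above 1.5. SFRP2, a WNT-binding protein of connective tissue cells, had a median of 158 TPM in rich and 60.8 TPM in poor libraries of GOM, 183 and 39.6 TPM in MAD, 135 and 33.8 TPM in RAD, and 64.3 and 15.8 TPM in ULB. It was higher in the rich libraries of every depot, by 1.73 ± 0.28, 2.20 ± 0.38, 2.40 ± 0.24 and 1.80 ± 0.27 (log2 fold change ± SE, depots in that order). WNT5A was also higher in the rich libraries, by 0.73 ± 0.19, 0.78 ± 0.20, 0.61 ± 0.21 and 0.99 ± 0.17. DKK3 went the other way, at -0.40 ± 0.14, -0.46 ± 0.13, -0.61 ± 0.14 and -0.58 ± 0.17, and was called in RAD. Of all genes tested, 38.9%, 32.8%, 33.5% and 40.7% were called between the classes in GOM, MAD, RAD and ULB. In bulk tissue fewer cells of a type and less RNA per cell cannot be told apart, here and in every comparison below. Called diet results are therefore given also within 1 class where at least 3 libraries a group allowed it.

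**Figure D1:**
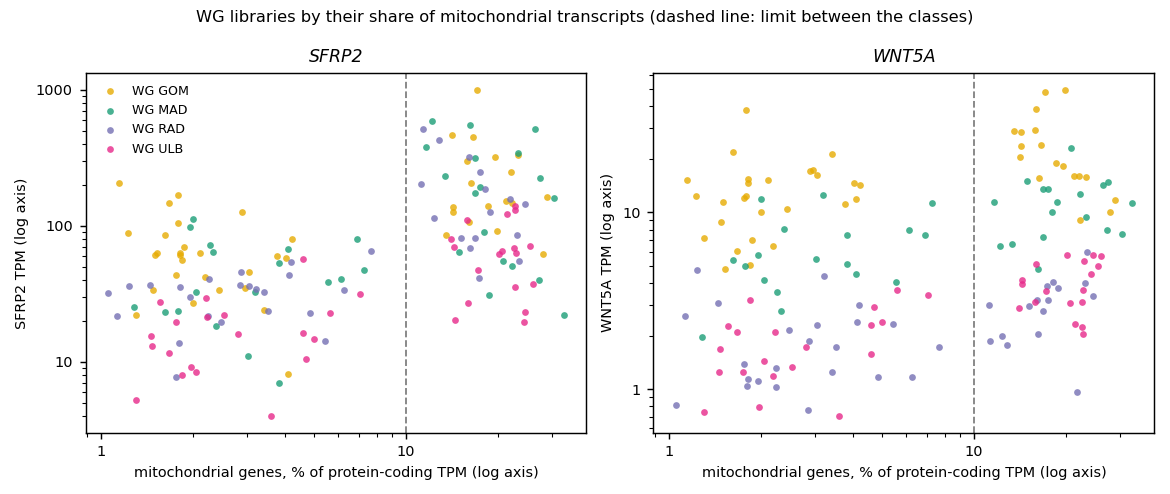
TPM of SFRP2 and WNT5A (log axis) against the share of PCG TPM on mitochondrial genes (percent, log axis) in each WG library, coloured by depot, with the 10% limit as a dashed line. SFRP2 lay higher to the right of the line in every depot, with medians of 183 against 39.6 TPM in MAD.

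Positions are on the pig genome build Sscrofa11.1, and the sequences are from its RefSeq annotation. WNT6 lies on the plus strand of chromosome 15 (120901471 to 120917359), 7844 bp from its neighbour WNT10A. WNT2B lies on the minus strand of chromosome 4 (107906141 to 107923343), where it overlaps ST7L of the opposite strand, and the authors' counting used strand. SFRP4 lies on the minus strand of chromosome 9 (108404314 to 108414335), 3661 bp from EPDR1. The 300 bases before the start of these 3 genes are shown because WNT6 and SFRP4 carried the widest differences between diets and depots, and WNT2B because its promoter stood at the other end from WNT6 in CG pairs. WNT6 (chr15:120901171-120901470, plus strand) is shown with each CG pair in capitals, WNT2B (chr4:107923344-107923643, minus strand) holds no CG pair, and SFRP4 (chr9:108414336-108414635, minus strand) is shown with its single match to CTTTGA, the core letters of TCF and LEF motifs, in capitals.
WNT6: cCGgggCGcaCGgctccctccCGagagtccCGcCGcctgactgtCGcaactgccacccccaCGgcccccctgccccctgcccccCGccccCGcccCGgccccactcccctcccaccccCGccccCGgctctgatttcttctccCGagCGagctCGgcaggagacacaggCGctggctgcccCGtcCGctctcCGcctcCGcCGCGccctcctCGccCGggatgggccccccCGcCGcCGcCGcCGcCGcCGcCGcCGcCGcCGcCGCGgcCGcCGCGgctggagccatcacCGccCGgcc
WNT2B: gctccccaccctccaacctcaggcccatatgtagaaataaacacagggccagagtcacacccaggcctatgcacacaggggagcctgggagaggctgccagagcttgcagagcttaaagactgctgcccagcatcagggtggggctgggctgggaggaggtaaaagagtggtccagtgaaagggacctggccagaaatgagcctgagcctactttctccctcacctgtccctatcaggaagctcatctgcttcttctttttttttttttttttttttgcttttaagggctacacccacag
SFRP4: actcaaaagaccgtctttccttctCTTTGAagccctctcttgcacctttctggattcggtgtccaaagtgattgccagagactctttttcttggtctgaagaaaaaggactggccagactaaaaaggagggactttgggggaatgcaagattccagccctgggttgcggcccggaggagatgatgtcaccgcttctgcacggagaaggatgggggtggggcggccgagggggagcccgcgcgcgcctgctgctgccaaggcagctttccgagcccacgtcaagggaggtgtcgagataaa
The WNT6 promoter held 43 CG pairs and 82.3% G and C, and 4.89% of 19556 promoters of PCGs held as many CG pairs or more (median 13). The WNT2B promoter held 0 CG pairs and 53.0% G and C, and 3.21% of promoters held as few. CTTTGA or its reverse complement TCAAAG was found in 13.1% of promoters of this length on either strand, and in the promoter of 1 of the 10 genes, that of SFRP4. A match of letters is a description and not a binding site.

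The 10 genes spanned a wide range of levels. Averaged over all libraries, SFRP1 stood highest with 119 TPM, above 94.7% of PCGs, followed by SFRP2 with 80.5 TPM, SFRP4 with 47.8 TPM, DKK2 with 27.1 TPM and DKK3 with 25.6 TPM. The ligands were lower, with 8.71 TPM for WNT5A, 5.87 TPM for WNT11, 1.76 TPM for WNT6 and 1.73 TPM for WNT2B. WIF1 was the lowest with 0.371 TPM, and it did not pass the limit on low values (above 0.5 TPM in at least 80% of the libraries of 1 of the 2 groups) in any comparison of whole groups. In 21 of the 238 tests of the other 9 genes only 1 of the 2 groups passed that limit, for WNT2B against ULB or for WNT6, and the 12 calls among them, each with the gene higher in the group that passed, have the direction that the limit favours. WNT6 rested on few reads in some groups, with a median of 7.72 estimated counts a library in WG ULB and 7.81 in NC GOM, against 78.3 in WL GOM and 112.8 in WL RAD.

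**Figure D2:**
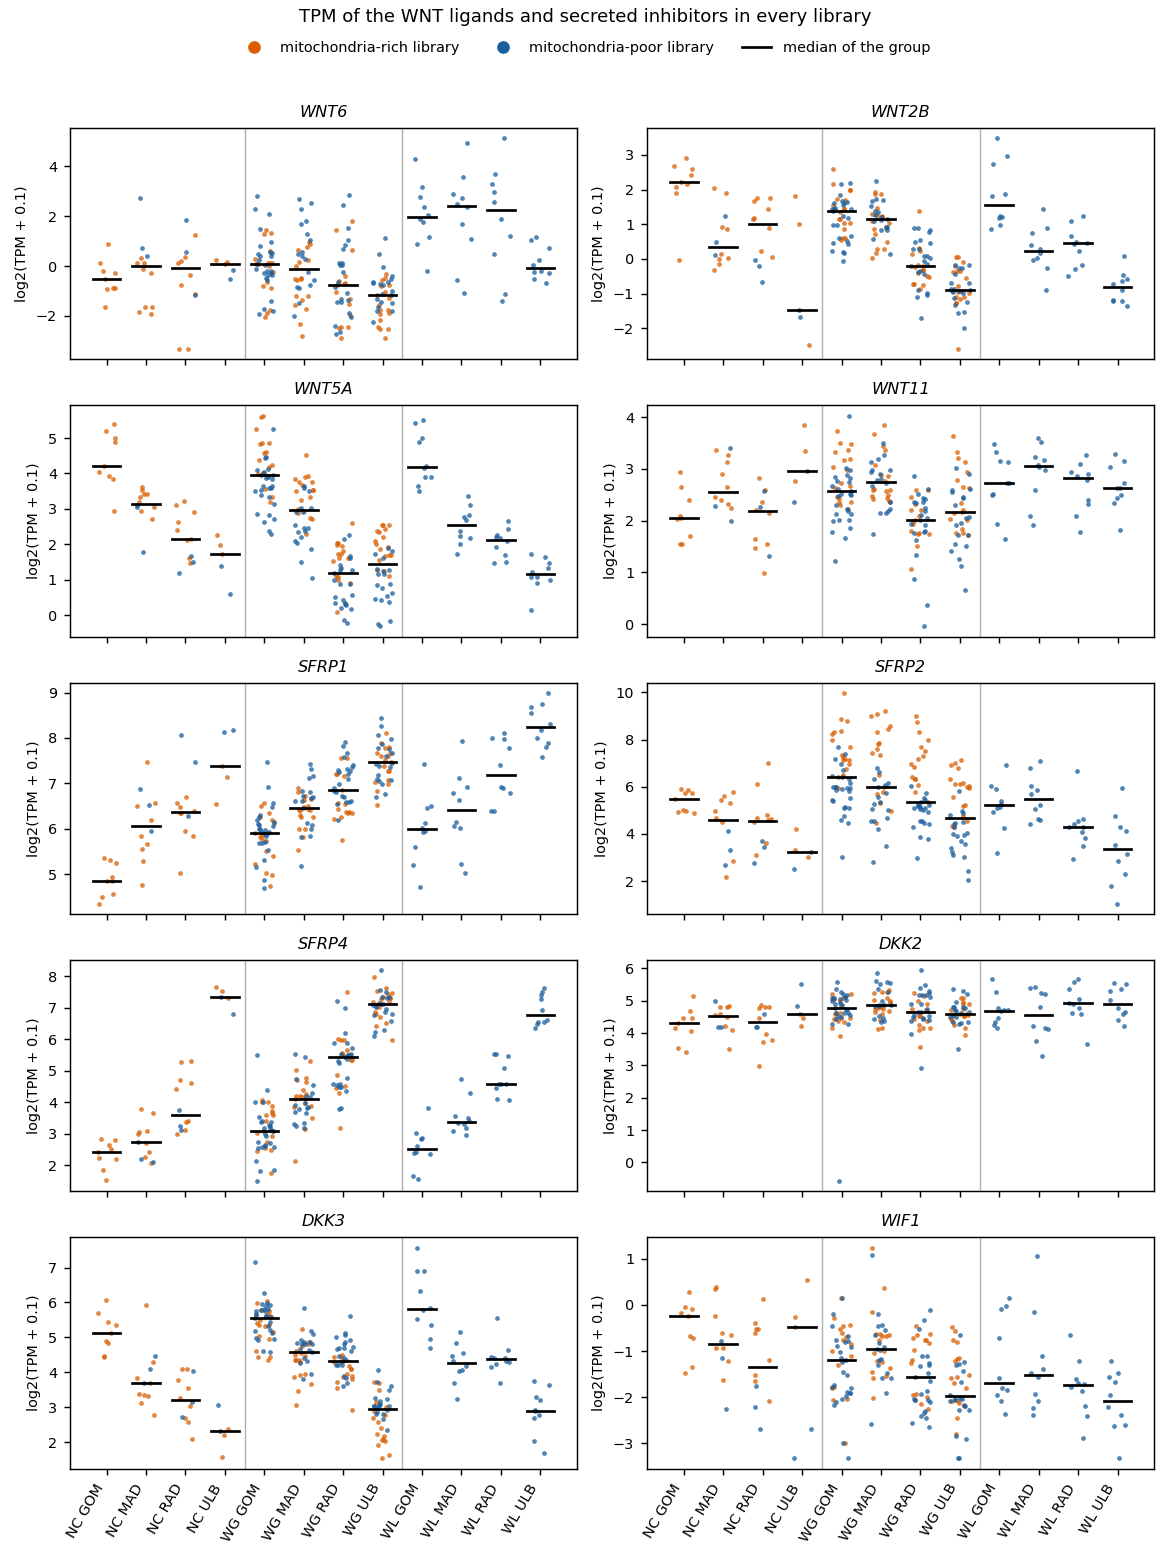
Level of each of the 10 genes, log2(TPM + 0.1), in each library of the 12 diet and depot groups, with mitochondria-rich libraries in orange, mitochondria-poor libraries in blue and the group median as a black bar. SFRP4 was higher and WNT5A lower in ULB than in GOM of every diet, and WNT6 was highest in the visceral depots of WL.

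The first question was how the 10 genes differed between depots of pigs on the same diet. Between GOM and ULB, 7 of 9 genes tested were called in NC, 7 of 9 in WG and 6 of 9 in WL, where 25.4%, 17.9% and 16% of all genes were called. Between GOM and RAD the counts were 5 of 8, 6 of 9 and 5 of 8, with 19.5%, 11.2% and 12.2% of all genes. Between GOM and MAD they were 4 of 8, 3 of 9 and 4 of 9, with 17.7%, 6.27% and 5.97% of all genes. The share called of the members tested was above that of all genes in each of these comparisons. The members were chosen with earlier results of these data known, so that share is not independent of the choice. Between MAD and ULB the counts were 4 of 9, 6 of 8 and 7 of 9, with 7.73%, 14.4% and 14.4% of all genes. Between RAD and ULB they were 2 of 9, 4 of 8 and 5 of 8, with 4.32%, 9.27% and 4.34% of all genes. Between MAD and RAD they were 1 of 8, 4 of 8 and 1 of 8, with 2.41%, 5.40% and 7.31% of all genes. Summed over the 3 diets MAD and RAD were the pair with the fewest calls, whereas in WG the fewest were between GOM and MAD. The median log2 fold change of the members tested between GOM and ULB was 0.28 for NC, -1.53 for WG and -1.37 for WL, against -0.021, -0.0024 and -0.0074 over all genes. Summed over the 6 pairs of depots, 23 of 51 tests were called in NC, 30 of 51 in WG and 28 of 51 in WL. Among these calls 1 in NC, 4 in WG and 3 in WL were of WNT2B or WNT6 with only the higher group past the limit on low values. Pairs that share a depot share its libraries. In WL the values of WNT6 in pairs with RAD were left out of these counts.

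Among the ligands, WNT5A stood highest in GOM. Its level in WG was 4.77 to 49.5 (median 15.3) TPM in GOM, 1.98 to 23 (median 7.74) in MAD, 0.763 to 5.95 (median 2.17) in RAD and 0.704 to 5.73 (median 2.63) in ULB. In NC it was 7.57 to 41.8 (median 18.6) TPM in GOM, and the 5 ULB libraries had 2.53, 3.87, 1.41, 3.22 and 4.68 TPM. In WL it was 11.3 to 45.3 (median 18.1) TPM in GOM and 1.01 to 3.20 (median 2.13) TPM in ULB. All GOM libraries stood above all ULB libraries in NC and in WL, whereas the ranges overlapped in WG. WNT5A was lower in ULB than in GOM in NC (log2 fold change -2.96 ± 0.38, adjusted p = 3.12e-05), in WG (log2 fold change -2.49 ± 0.17, adjusted p = 2.73e-23) and in WL (log2 fold change -3.44 ± 0.28, adjusted p = 2.94e-09). It was also lower in MAD and in RAD than in GOM in every diet, with log2 fold changes of -0.91 ± 0.16 and -2.75 ± 0.17 in WG.

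WNT2B, a ligand of the β-catenin route, was also highest in GOM, at lower levels. Its level in WG was 0.865 to 5.94 (median 2.53) TPM in GOM, 0.913 to 4.66 (median 2.10) in MAD, 0.208 to 2.48 (median 0.771) in RAD and 0.0658 to 0.942 (median 0.436) in ULB. In WL it was 1.72 to 11 (median 2.83) TPM in GOM and 0.294 to 0.963 (median 0.471) TPM in ULB, and no ULB library reached the lowest GOM library. In NC it was 0.888 to 7.40 (median 4.53) TPM in GOM, and the 5 ULB libraries spread widely, with 0.259, 3.40, 0.212, 1.89 and 0.0783 TPM. WNT2B was lower in ULB than in GOM in NC (log2 fold change -2.04 ± 0.70, adjusted p = 0.0353), in WG (log2 fold change -2.20 ± 0.14, adjusted p = 1.77e-24) and in WL (log2 fold change -3.13 ± 0.35, adjusted p = 3.86e-07). In each diet only GOM passed the limit on low values, so that limit favours these calls. Across all libraries WNT2B and WNT5A had a Spearman correlation of 0.78, the highest of any pair among the 10 genes, and the median within the 12 groups was 0.52. The libraries share depots, depth and class, so these are descriptions.

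WNT6 and WNT11 were each called in 3 depot comparisons. WNT6 in WG was 0.143 to 6.83 (median 0.946) TPM in GOM and 0.0361 to 2.07 (median 0.349) TPM in ULB, and in WL it was 0.773 to 19.3 (median 3.78) TPM in GOM, 0.370 to 30.3 (median 5.25) in MAD and 0.528 to 2.13 (median 0.853) in ULB. The ranges of GOM and ULB overlapped in both diets. WNT6 was lower in ULB than in GOM in WG (log2 fold change -1.53 ± 0.27, adjusted p = 1.16e-06) and in WL (log2 fold change -2.27 ± 0.44, adjusted p = 4.03e-04), and lower in ULB than in MAD in WL (log2 fold change -2.73 ± 0.58, adjusted p = 0.00184). In WG only GOM passed the limit on low values, so that limit favours the call there. Between RAD and ULB in WL the value was -2.77 on the log2 scale, given without a test. WNT11 stood at medians of 4.02, 5.78, 4.44 and 7.63 TPM in GOM, MAD, RAD and ULB of NC. It was higher in ULB than in GOM in NC (log2 fold change 0.86 ± 0.30, adjusted p = 0.0380), a call lost with the replicate number as a block (0.91), and lower in RAD than in GOM in WG (log2 fold change -0.60 ± 0.12, adjusted p = 3.67e-05). In WG 2 pairs of depots were called for WNT11. Over the 6 pairs its log2 fold change ran from -0.76 to 0.33, with adjusted p down to 8.72e-08 (edgeR).

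Among the inhibitors, SFRP4 had the widest differences between depots of the 10 genes, in the opposite direction to WNT5A. In NC it was 2.77 to 7.05 (median 5.21) TPM in GOM, 4.14 to 13.9 (median 6.54) in MAD and 7.78 to 40.03 (median 12) in RAD, and the 5 ULB libraries had 112, 201, 164, 158 and 184 TPM. In WG it was 2.73 to 44.8 (median 8.41) TPM in GOM, 4.30 to 46 (median 17.2) in MAD, 9.08 to 180.5 (median 43) in RAD and 63.5 to 292 (median 139) in ULB. In WL it was 2.85 to 14 (median 5.63) TPM in GOM and 81.7 to 196 (median 109.9) TPM in ULB. Every ULB library stood above every GOM library of the same diet. SFRP4 was higher in ULB than in GOM in NC (log2 fold change 4.91 ± 0.21, adjusted p = 8.73e-11), in WG (log2 fold change 3.94 ± 0.16, adjusted p = 1.89e-37) and in WL (log2 fold change 4.36 ± 0.27, adjusted p = 3.92e-11). Within WG the difference was 3.98 ± 0.19 among rich and 3.96 ± 0.22 among poor libraries. It was called in 17 of the 18 depot comparisons, and the exception was GOM against MAD in NC.

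SFRP1, the most abundant of the 10, rose in the same direction over a smaller range. In NC it was 20.4 to 41.2 (median 28.8) TPM in GOM, and the 5 ULB libraries had 291, 141, 281, 93.5 and 167 TPM. In WG it was 25.9 to 178 (median 60.4) TPM in GOM and 91.5 to 347 (median 177) TPM in ULB. In WL it was 26.1 to 173 (median 63.6) TPM in GOM and 191 to 508 (median 302) TPM in ULB. The ranges did not overlap in NC and in WL but did in WG. SFRP1 was higher in ULB than in GOM in NC (log2 fold change 2.62 ± 0.23, adjusted p = 5.67e-07), in WG (log2 fold change 1.64 ± 0.12, adjusted p = 2.54e-22) and in WL (log2 fold change 2.18 ± 0.26, adjusted p = 7.88e-07). SFRP2 went the other way. It was 29.6 to 60.2 (median 45.2) TPM in NC GOM against 5.70, 9.94, 9.19, 8.01 and 18.6 TPM in the 5 NC ULB libraries, which all stood lower. In WG it was 8.10 to 1001 (median 85.7) TPM in GOM and 4.0 to 141 (median 25.2) TPM in ULB, with wide overlap. It was lower in ULB in NC (log2 fold change -2.17 ± 0.25, adjusted p = 8.62e-06) and in WG (log2 fold change -1.67 ± 0.28, adjusted p = 4.44e-07), whereas in WL the difference of -1.37 ± 0.52 did not pass the test (adjusted p = 0.0593).

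DKK3, a divergent dickkopf protein that is not a typical LRP5 and LRP6 inhibitor, was higher in GOM than in any other depot in each diet. In NC it was 21.7 to 67.7 (median 35.1) TPM in GOM, and the 5 ULB libraries had 4.85, 4.54, 8.17, 2.90 and 5.09 TPM. In WG it was 20.5 to 142 (median 46.5) TPM in GOM and 2.80 to 16.6 (median 7.54) TPM in ULB. In WL it was 25.9 to 189.7 (median 55.7) TPM in GOM and 3.12 to 13.4 (median 7.36) TPM in ULB. GOM and ULB did not overlap in any diet. DKK3 was lower in ULB in NC (log2 fold change -2.96 ± 0.29, adjusted p = 1.79e-06), in WG (log2 fold change -2.48 ± 0.13, adjusted p = 7.59e-30) and in WL (log2 fold change -3.28 ± 0.35, adjusted p = 2.47e-07). DKK2, an LRP5 and LRP6 binding protein, was called in 0 of its 28 edgeR tests (2 had an unadjusted p below 0.05) and in 0 by DESeq2, and its group medians ran from 19.5 TPM in NC GOM to 30.2 TPM in WL RAD. The medians of WIF1 ran from 0.137 TPM in WL ULB to 0.746 TPM in NC GOM.

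**Figure D3:**
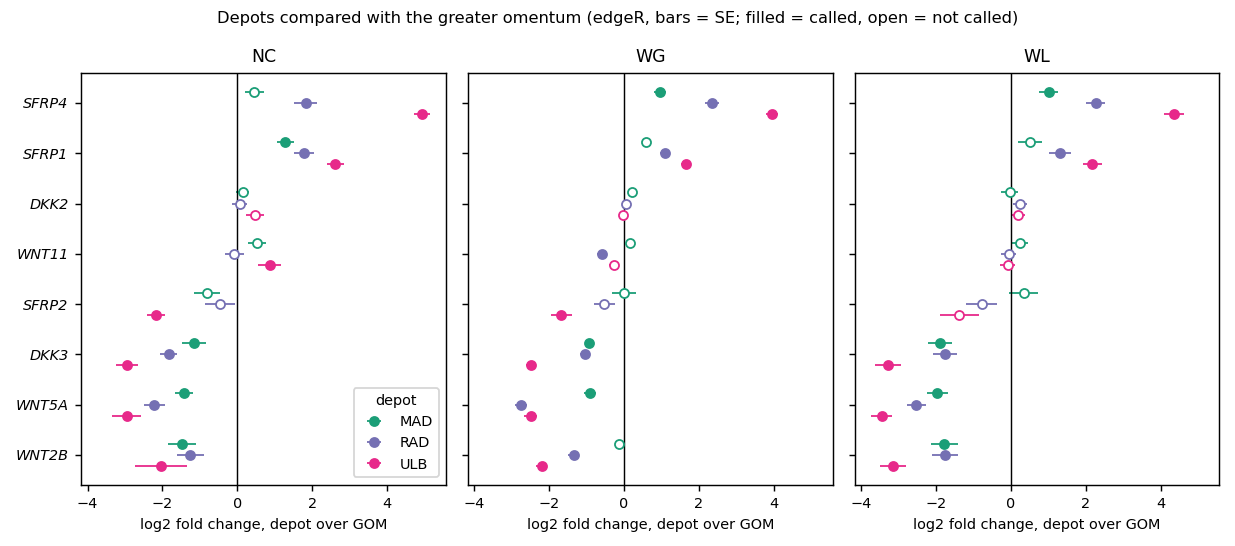
Log2 fold change (± SE) of 8 of the genes in MAD, RAD and ULB relative to GOM in NC, WG and WL, with filled points for called differences. SFRP4 and SFRP1 lie above 0 and WNT5A, WNT2B and DKK3 below 0 in ULB of every diet.

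Markers of mesothelium, the cell layer that covers the omentum, also stood highest in GOM. Of 9 listed mesothelial markers 4 were found (WT1, KRT8, KRT18 and CALB2). Their summed level in GOM was 102.2 to 250.4 TPM (median 174) in NC, 55.7 to 705 TPM (median 177) in WG and 102.4 to 637 TPM (median 273) in WL. In the other depots the medians were 8.37 to 18.5 TPM. The defining marker WT1 had medians of 71.8, 40.2 and 48.2 TPM in GOM of NC, WG and WL, and 0.627, 0.154 and 0.0144 TPM in ULB. The part of these cells in the levels of WNT5A, WNT2B and DKK3 was not tested.

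The next question was how a high-fat diet moved these genes. Between NC and WG, 4 of 9 genes tested were called in GOM, where 26.7% of all genes were called. In MAD 2 of 8 were called (10.7% of all genes), in RAD 5 of 8 (16.7%) and in ULB 1 of 8 (2.38%). Of the 12 calls 7 were higher and 5 were lower in WG, and the median log2 fold change of the members was 0.23, 0.17, 0.14 and -0.29 in GOM, MAD, RAD and ULB. Within mitochondria-rich libraries 12.7%, 8.29%, 15.4% and 6.71% of all genes were called in GOM, MAD, RAD and ULB. Within poor libraries 0.827% were called in MAD and 5.44% in RAD, with 3 NC libraries each.

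SFRP2 was higher in WG in the 3 visceral depots. It was 29.6 to 60.2 (median 45.2) TPM in NC and 8.10 to 1001 (median 85.7) TPM in WG in GOM. In MAD it was 4.43 to 54.0 (median 24.3) TPM in NC and 6.99 to 589 (median 64.0) TPM in WG. In RAD it was 6.74 to 127 (median 23.4) TPM in NC and 7.69 to 517 (median 41.2) TPM in WG. The highest WG libraries stood far above the NC libraries, but the ranges overlapped in each depot. SFRP2 rose in GOM (log2 fold change 1.36 ± 0.46, adjusted p = 0.0169), MAD (log2 fold change 2.16 ± 0.54, adjusted p = 0.00395) and RAD (log2 fold change 1.29 ± 0.48, adjusted p = 0.0338). In ULB the difference of 1.86 ± 0.64 did not pass the test (adjusted p = 0.108). Among rich libraries alone it rose in all 4 depots, by 2.13 ± 0.36, 2.61 ± 0.54 and 1.91 ± 0.45 in the visceral depots GOM, MAD and RAD, and by 2.26 ± 0.58 in ULB. Among poor libraries the values were 1.54 ± 0.37 in RAD, which was called, and 2.01 ± 0.63 in MAD, which was not (adjusted p = 0.157).

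SFRP4 also rose with the high-fat diet, in MAD and RAD. In MAD it was 4.14 to 13.9 (median 6.54) TPM in NC and 4.30 to 46 (median 17.2) TPM in WG (log2 fold change 1.15 ± 0.23, adjusted p = 3.51e-04). In RAD it was 7.78 to 40.03 (median 12) TPM in NC and 9.08 to 180.5 (median 43) TPM in WG (log2 fold change 1.15 ± 0.31, adjusted p = 0.00354). In both depots the ranges overlapped, and the median of WG stood above the highest NC library. The rise was called within either class of libraries in both depots, at 0.99 ± 0.26 and 1.80 ± 0.44 for rich and poor libraries of MAD. In ULB, where SFRP4 was highest, the change was -0.35 ± 0.21 and did not pass the test. The change in ULB minus that in MAD was -1.49 ± 0.32 on the log2 scale (adjusted p = 0.0101, edgeR test of the interaction). SFRP1 rose in GOM (log2 fold change 0.79 ± 0.21, adjusted p = 0.00237), and its changes in MAD, RAD and ULB were not shown to differ from that in GOM (adjusted p = 0.0769, 0.133 and 0.0646, edgeR tests of the interaction). Among rich libraries its change there was 0.58 ± 0.18, below the 1.5-fold limit.

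WNT2B and WNT5A were lower in WG than in NC in GOM and RAD. WNT2B in GOM was 0.888 to 7.40 (median 4.53) TPM in NC and 0.865 to 5.94 (median 2.53) TPM in WG (log2 fold change -1.24 ± 0.20, adjusted p = 3.19e-06). In RAD it was 0.536 to 3.30 (median 1.93) TPM in NC and 0.208 to 2.48 (median 0.771) TPM in WG (log2 fold change -1.36 ± 0.24, adjusted p = 1.78e-05). Both ranges overlapped. In MAD the change was 0.11 ± 0.22 and did not pass the test, and it differed from the change in GOM by 1.34 ± 0.31 (adjusted p = 0.00485) and from that in RAD (adjusted p = 0.00842, edgeR tests of the interaction). Among rich libraries WNT2B fell in GOM and RAD, with -1.17 ± 0.23 and -1.80 ± 0.28 as log2 fold changes, whereas among poor libraries of RAD the value was 0.27 ± 0.42, which was not called. WNT5A in RAD was 2.17 to 9.29 (median 4.30) TPM in NC and 0.763 to 5.95 (median 2.17) TPM in WG (log2 fold change -1.3 ± 0.22, adjusted p = 1.13e-05). In GOM it was 7.57 to 41.8 (median 18.6) TPM in NC and 4.77 to 49.5 (median 15.3) TPM in WG (log2 fold change -0.74 ± 0.24, adjusted p = 0.0128). The ranges overlapped in both. Among rich libraries the fall in RAD was called (-1.19 ± 0.24) and that in GOM was not (-0.37 ± 0.26).

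DKK3 in RAD was 4.17 to 17 (median 9.14) TPM in NC and 7.41 to 49.1 (median 19.8) TPM in WG (log2 fold change 0.79 ± 0.18, adjusted p = 7.90e-04), with overlap, a rise called among poor libraries (1.11 ± 0.31) but not among rich ones (0.37 ± 0.19). WNT11 was the only one of the 10 called in ULB, where the 5 NC libraries had 5.05, 10.1, 7.63, 6.66 and 14.3 TPM and the WG libraries 1.47 to 12.4 (median 4.38) TPM (log2 fold change -0.93 ± 0.27, adjusted p = 0.0449). Every NC library stood above the WG median. Among rich libraries, 3 of them NC, the change was -1.02 ± 0.30 and was called. With all libraries the value of WNT6 in ULB was -1.24 ± 0.44, which did not pass the test (adjusted p = 0.120).

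The third question was how weight loss after the high-fat diet moved them. Between WG and WL, 4 of 9 genes tested were called in GOM (5.26% of all genes), 3 of 9 in MAD (17.4%) and 2 of 8 in ULB (8.12%). WNT6, whose rise in WL RAD took part in the choice of the genes, is among the calls of each of these depots. In MAD and ULB it passed the limit on low values only through WL, so that limit favours those 2 calls. In RAD, which took part in the choice of the genes, no member was tested and 6.37% of all genes were called. Since all WL libraries were mitochondria-poor, the comparison was repeated against poor WG libraries, where 8.41%, 13.6% and 13.4% of all genes were called in GOM, MAD and ULB.

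WNT6 was higher in WL in each tested depot. In GOM it was 0.143 to 6.83 (median 0.946) TPM in WG and 0.773 to 19.3 (median 3.78) TPM in WL. In MAD it was 0.0447 to 6.28 (median 0.825) TPM in WG and 0.370 to 30.3 (median 5.25) TPM in WL. In ULB it was 0.0361 to 2.07 (median 0.349) TPM in WG and 0.528 to 2.13 (median 0.853) TPM in WL. The ranges overlapped in each depot, and the median of WL stood above that of WG. WNT6 rose in GOM (log2 fold change 2.0 ± 0.37, adjusted p = 2.16e-04), MAD (log2 fold change 2.43 ± 0.45, adjusted p = 7.83e-05) and ULB (log2 fold change 1.3 ± 0.32, adjusted p = 0.00316). In MAD and ULB WNT6 passed the limit on low values only through the WL libraries, where it is high, so that limit favours its calls there. In GOM both diets passed it. In RAD, the group that led to its choice, it was 0.0365 to 7.19 (median 0.496) TPM in WG and 0.275 to 34.6 (median 4.70) TPM in WL, a log2 difference of 2.83. WNT6 in GOM, MAD and ULB is no independent support for RAD, since the study took all depots from each pig.

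WNT6 varied widely among the WL libraries. The library numbered 3 was the highest in GOM (19.3 TPM), MAD (30.3 TPM) and RAD (34.6 TPM), and the next highest had 8.78, 11.7 and 12.7 TPM. The library numbered 10 was the lowest in GOM (0.773 TPM) and in MAD (0.370 TPM), and in RAD the lowest was number 4 (0.275 TPM). Without number 3 the rise was 1.603 in GOM, 1.81 in MAD and 1.12 in ULB, and leaving out any 1 WL number kept the call in these 3 depots. Against poor WG libraries the rise was 1.76 ± 0.41 in GOM, 1.90 ± 0.53 in MAD and 0.88 ± 0.33 in ULB, all called. With the PCG share of TPM as a covariate it was 1.97 ± 0.43 in GOM, which was called, and 1.67 ± 0.64 in MAD and 1.06 ± 0.38 in ULB, which were not. The neighbouring WNT10A had group medians of 0 to 0.429 TPM.

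Few other changes with weight loss were called. SFRP2 fell in GOM, where it was 8.10 to 1001 (median 85.7) TPM in WG and 9.09 to 121 (median 36.9) TPM in WL, a range that lay within that of WG (log2 fold change -1.63 ± 0.47, adjusted p = 0.0187). Against poor WG libraries the value was -0.69 ± 0.33 and was not called (adjusted p = 0.158), and in MAD it was 0.21 ± 0.35. SFRP4 fell in MAD, where it was 4.30 to 46 (median 17.2) TPM in WG and 7.67 to 26.6 (median 10.2) TPM in WL (log2 fold change -0.64 ± 0.22, adjusted p = 0.0258), a call lost without WL number 1, 6 or 7 and against poor WG libraries (-0.61 ± 0.24, adjusted p = 0.0619). SFRP1 rose in ULB, where it was 91.5 to 347 (median 177) TPM in WG and 191 to 508 (median 302) TPM in WL (log2 fold change 0.69 ± 0.16, adjusted p = 0.00122). In each of these the ranges overlapped. Against poor WG libraries its rise of 0.56 ± 0.17 was below the 1.5-fold limit.

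WNT2B moved in opposite directions in GOM and MAD. In GOM it was 0.865 to 5.94 (median 2.53) TPM in WG and 1.72 to 11 (median 2.83) TPM in WL and rose (log2 fold change 0.78 ± 0.22, adjusted p = 0.0145). In MAD it was 0.913 to 4.66 (median 2.10) TPM in WG and 0.442 to 2.59 (median 1.07) TPM in WL and fell (log2 fold change -0.87 ± 0.20, adjusted p = 0.00115). The ranges overlapped in both. Both held against poor WG libraries, at 0.84 ± 0.25 in GOM and -0.96 ± 0.21 in MAD. The change in MAD minus that in GOM was -1.65 ± 0.31 on the log2 scale (adjusted p = 0.00213, edgeR test of the interaction). DKK3 rose in GOM, where it was 20.5 to 142 (median 46.5) TPM in WG and 25.9 to 189.7 (median 55.7) TPM in WL (log2 fold change 0.70 ± 0.20, adjusted p = 0.0172), and its change in MAD minus that in GOM was -0.96 ± 0.27 (adjusted p = 0.0393). Against poor WG libraries the rise of DKK3 in GOM was 0.53 ± 0.22 and was not called (adjusted p = 0.0986). WNT5A, which was not called in GOM with all libraries, was called there against poor WG libraries, at 0.79 ± 0.22. The GOM calls of DKK3 and WNT2B were lost without WL number 5, 6 or 8, and without the libraries under 90% PCG TPM, which left 2 of the 10 WL libraries of GOM, the values turned to -0.20 for DKK3 and -0.16 for WNT2B. The RAD values from WG to WL were -1.84 for SFRP2, -0.74 for SFRP4, 0.73 for WNT5A, 0.62 for WNT11 and 0.01 for DKK3 on the log2 scale, without a test.

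**Figure D4:**
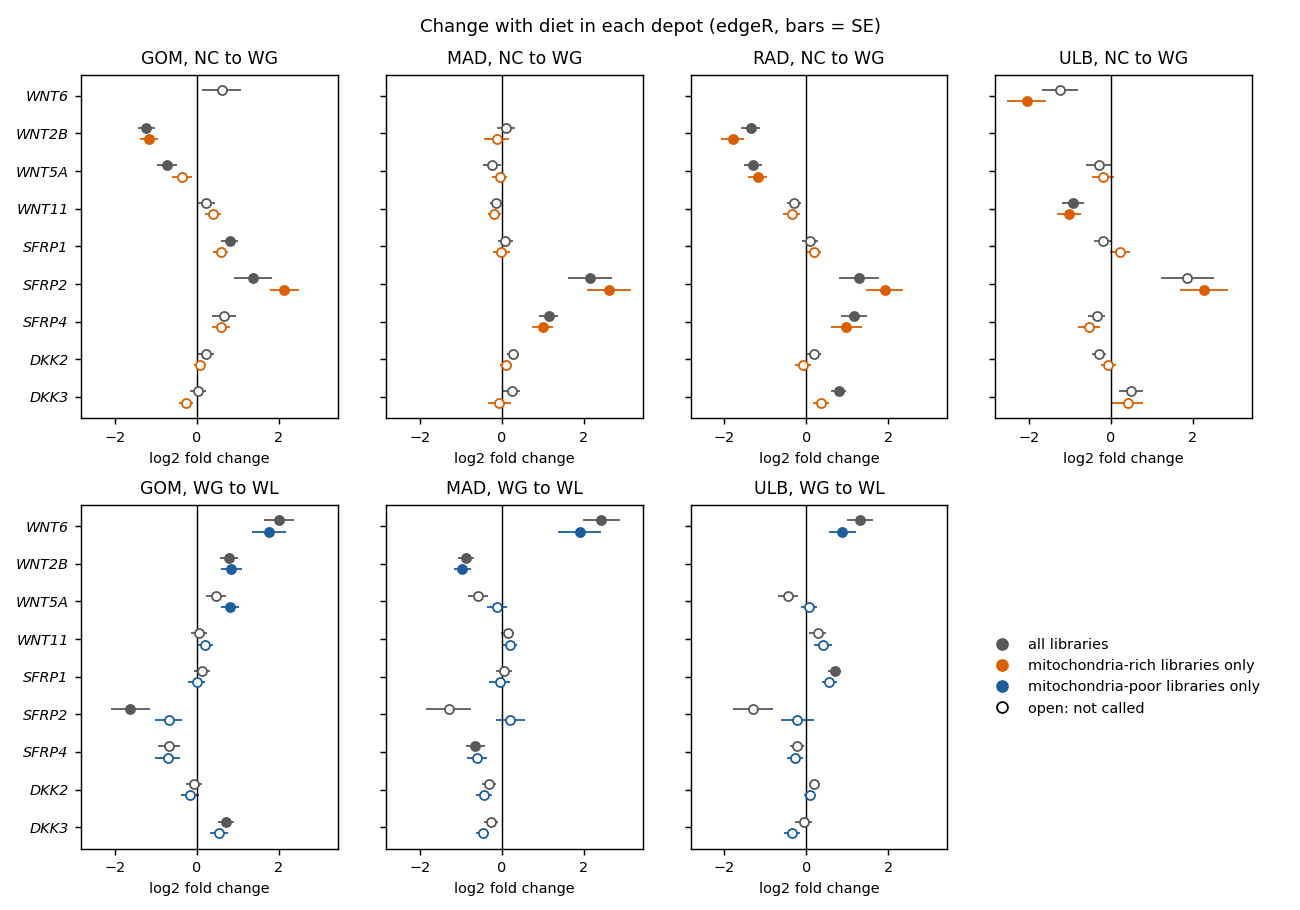
Log2 fold change (± SE) of 9 of the genes from NC to WG in 4 depots and from WG to WL in GOM, MAD and ULB, with grey points for all libraries, orange for mitochondria-rich and blue for mitochondria-poor libraries only; open points were not called. SFRP2 lies above 0 from NC to WG in all 4 depots, and WNT6 lies above 0 from WG to WL in each depot shown.

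Weight-loss pigs were also compared with NC pigs. Between NC and WL, 2 of 9 genes tested were called in GOM (36.1% of all genes), 2 of 9 in MAD (33.1%) and 1 of 8 in ULB (14.8%), while 26.7% of all genes were called in RAD, where no member was tested. These shares lie below those of all genes in GOM, MAD and ULB. WNT6 was 0.219 to 1.74 (median 0.601) TPM in NC GOM against 0.773 to 19.3 (median 3.78) TPM in WL GOM (log2 fold change 2.60 ± 0.48, adjusted p = 1.14e-04). In MAD it was 0.162 to 6.46 (median 0.899) TPM in NC against 0.370 to 30.3 (median 5.25) TPM in WL (log2 fold change 2.37 ± 0.64, adjusted p = 0.00471). Against the 3 poor NC libraries of MAD the value was 1.06 ± 1.01 and was not called (adjusted p = 0.503), with 9.20% of all genes called. In GOM all NC libraries were rich and all WL libraries poor, so class and diet cannot be told apart. SFRP1 was higher in WL GOM (log2 fold change 0.93 ± 0.24, adjusted p = 0.00223), and WNT5A was lower in WL in MAD (log2 fold change -0.80 ± 0.20, adjusted p = 0.00313) and in ULB (log2 fold change -0.76 ± 0.26, adjusted p = 0.0489). Both falls of WNT5A were lost once class was taken into account. Against the 3 poor NC libraries of MAD the value was -0.26 ± 0.32 (adjusted p = 0.606), and in ULB, with 2 poor NC libraries at 2.53 and 1.41 TPM against a median of 2.13 TPM in WL, it was -0.12 ± 0.32 with class as a covariate (adjusted p = 0.852). In GOM and MAD WNT6 passed the limit on low values only through the WL libraries. In RAD the values were 2.63 for WNT6, 0.81 for DKK3 and -0.94 for WNT2B on the log2 scale.

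The rest of the pathway was read from lists of further genes, with counts of tests called higher and lower in the second group over the 6 depot pairs (in the order GOM, MAD, RAD and ULB) or over the diet comparisons other than those of WL RAD. The medians over all genes tested lay between -0.041 and 0.039 on the log2 scale in these comparisons. Over the same comparisons 13%, 10.8% and 10.1% of the tests of all genes were called between depots in NC, WG and WL, and 14.3%, 10.3% and 28.1% from NC to WG, from WG to WL and from NC to WL, which is the background for each list below. Of the other WNT ligands 5 passed the limit on low values, and their depot tests were called higher and lower in 5 and 11 of 29 in NC, 4 and 18 of 30 in WG and 3 and 12 of 30 in WL, with a median of -0.84 in WG. WNT16 was lower in ULB than in GOM, with -4.15, -3.91 and -5.33 as log2 fold changes in NC, WG and WL. WNT5B was lower in ULB, with -2.42, -3.0 and -3.31 and WNT9A with -1.05, -1.22 and -1.72. WNT2 was higher in ULB, by 2.91, 1.77 and 1.78. Like WNT5A and WNT2B, WNT16 and WNT5B thus stood higher in GOM than in ULB, and WNT2, like SFRP4, lower. Over the diets the counts of these ligands were 2 and 1 of 19 from NC to WG, 2 and 1 of 14 from WG to WL and 3 and 1 of 14 from NC to WL. WNT9A was among those that rose from WG to WL, at 1.0 in GOM and 0.69 in MAD.

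Of the other secreted inhibitors 2 of 8 passed the limit, SFRP5 and FRZB, and both bind WNT ligands. Their counts between depots were 2 and 0 of 12 in NC, 3 and 0 of 12 in WG and 2 and 0 of 12 in WL, and between diets 3 and 0 of 8 from NC to WG, 0 and 1 of 6 from WG to WL and 0 and 0 of 6 from NC to WL. FRZB rose in ULB from NC to WG by 1.26 and fell from WG to WL, at -0.61. WLS and PORCN, which secrete and lipid-modify the ligands, had counts between depots of 0 and 0 of 12 in NC, 0 and 0 of 12 in WG and 0 and 2 of 12 in WL, and between diets of 0 and 0 of 8 from NC to WG, 0 and 0 of 6 from WG to WL and 1 and 0 of 6 from NC to WL.

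Of the receptors and co-receptors 15 of 17 passed the limit. Their counts between depots were 7 and 7 of 89 in NC, 3 and 13 of 87 in WG and 3 and 12 of 90 in WL, and between diets 4 and 2 of 58 from NC to WG, 11 and 1 of 45 from WG to WL and 10 and 4 of 45 from NC to WL. FZD3, a Frizzled receptor, was lower in ULB than in GOM, with -1.61, -2.02 and -1.53. FZD7 rose from WG to WL, at 0.83 in GOM, 0.87 in MAD and 0.65 in ULB. R-spondins, which boost WNT signals, and their receptors had counts between depots of 1 and 12 of 20 in NC, 1 and 12 of 21 in WG and 1 and 9 of 21 in WL, with a median of -0.91 in WG. RSPO1 was lower in ULB than in GOM, with -4.73, -4.63 and -4.42, and its receptor LGR5 with -3.75, -2.61 and -3.64. LGR5 had 12 tests, all with GOM libraries, the only ones in which it passed the limit on low values. That limit favours its depot calls, which are among the counts of this list. Over the diets the counts of this list were 0 and 1 of 12 from NC to WG, 2 and 2 of 10 from WG to WL and 1 and 2 of 10 from NC to WL.

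The genes of signal transduction, from DVL and AXIN to TCF and LEF, had counts between depots of 0 and 4 of 66 in NC, 2 and 8 of 66 in WG and 2 and 8 of 66 in WL, and between diets of 2 and 5 of 43 from NC to WG, 2 and 5 of 33 from WG to WL and 4 and 10 of 33 from NC to WL. TCF7 and LEF1 rose in MAD from WG to WL by 2.11 and 2.66, beside a summed level of lymphocyte markers of 24.9 to 613 TPM (median 35.9) in WL MAD and 11.04 to 294 TPM (median 27.1) in WG MAD. The part of lymphocytes in this rise was not tested. The WNT target genes had counts between depots of 5 and 11 of 57 in NC, 7 and 15 of 51 in WG and 4 and 17 of 54 in WL, and between diets of 1 and 7 of 34 from NC to WG, 2 and 1 of 25 from WG to WL and 2 and 4 of 26 from NC to WL. AXIN2, a feedback target of β-catenin, was lower in ULB than in GOM, with -1.97, -0.86 and -2.75, and CCN4, another target, with -3.58, -3.62 and -3.13.

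Chromatin compartments were measured by Hi-C in 240 samples, with 9, 12, 12 and 5 samples in GOM, MAD, RAD and ULB of NC, 46, 37, 40 and 39 in WG and 10 in each WL depot. The A-B index of a 20-kb bin is positive where its contacts are mainly with open (A) and negative where they are mainly with closed (B) chromatin, and each gene was given the bin of its start. The index was above 0 in all 240 samples for WNT6, WNT2B, WNT11, SFRP2 and DKK3, and below 0 in all 240 for SFRP1 and WIF1. SFRP1 was thus the most abundant of the 10 genes while its start lay in B.

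Between depots of the same diet 64 of 180 tests of the 10 genes' bins were called (limma, adjusted p below 0.05 over 113298 bins). Between GOM and ULB 3, 8 and 3 of 10 were called in NC, WG and WL, with 23.5%, 66.4% and 29.3% of all bins. Between GOM and RAD the counts were 2, 6 and 4, with 31.6%, 56.8% and 31.7%. Between GOM and MAD they were 3, 5 and 4, with 15.1%, 45.8% and 23.7%. In contrast to expression, most of these shares stood near those of all bins. Between MAD and ULB they were 2, 7 and 3, with 12.9%, 56.4% and 14.7%. Between RAD and ULB they were 2, 7 and 3, with 18.4%, 58.3% and 10.7%. Between MAD and RAD they were 0, 1 and 1, with 10%, 18.4% and 1.95%.

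The bin of SFRP4 stood, like its expression, higher in ULB than in GOM. In NC its index was -2.12 to -1.23 (median -1.61) in GOM and -0.35 to 0.39 (median -0.20) in ULB. In WG it was -2.04 to -0.81 (median -1.52) in GOM and -1.38 to 1.25 (median -0.39) in ULB. The bin was less negative in ULB by 1.57 ± 0.19 in NC, 1.18 ± 0.10 in WG and 0.93 ± 0.19 in WL (difference ± SE, adjusted p = 4.35e-05, 4.41e-19 and 7.38e-04). DKK3 stood, like its expression, lower in ULB than in GOM, with medians of 3.13, 2.57, 2.58 and 2.09 in GOM, MAD, RAD and ULB of WG. The difference was -1.0 ± 0.11 in WG and -1.90 ± 0.22 in WL. The bin of WNT5A was lower in MAD, RAD and ULB than in GOM in WG, with differences of -0.86 ± 0.11, -1.02 ± 0.09 and -0.50 ± 0.09. WNT2B was lower in ULB than in GOM, with differences of -1.51 ± 0.29 in NC and -0.82 ± 0.09 in WG. SFRP1 and SFRP2 stood against their expression in WG. The index of SFRP1 was lower in ULB than in GOM (-0.53 ± 0.11) while its expression was higher there, and that of SFRP2 was higher (0.27 ± 0.09) while its expression was lower.

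Between diets 25 of 100 tests of the bins were called over 10 comparisons, but only 10 after the index was quantile normalized across all samples, 5 of them for DKK3 and 0 for WNT6. From NC to WG 3, 5, 3 and 0 of 10 were called in GOM, MAD, RAD and ULB, with 11.6%, 20.5%, 20.8% and 10.7% of all bins. From WG to WL 3, 1 and 2 were called in GOM, MAD and ULB, with 18%, 4.91% and 33.4%. From NC to WL the counts were 4, 3 and 1, with 14.5%, 23% and 15.1%. DKK3 rose from NC to WG in GOM, MAD and RAD, by 0.58 ± 0.18, 0.78 ± 0.14 and 0.86 ± 0.14. WNT6 had medians of 2.81, 3.34 and 4.02 in GOM of NC, WG and WL, with differences of 0.47 ± 0.16 from NC to WG and 0.51 ± 0.16 from WG to WL (adjusted p = 0.0200). In MAD and ULB, where WNT6 expression rose with weight loss, the index of its bin was not called between WG and WL. The median difference over all bins was as large as 0.14 from NC to WG in GOM and RAD and 0.25 in ULB.

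**Figure D5:**
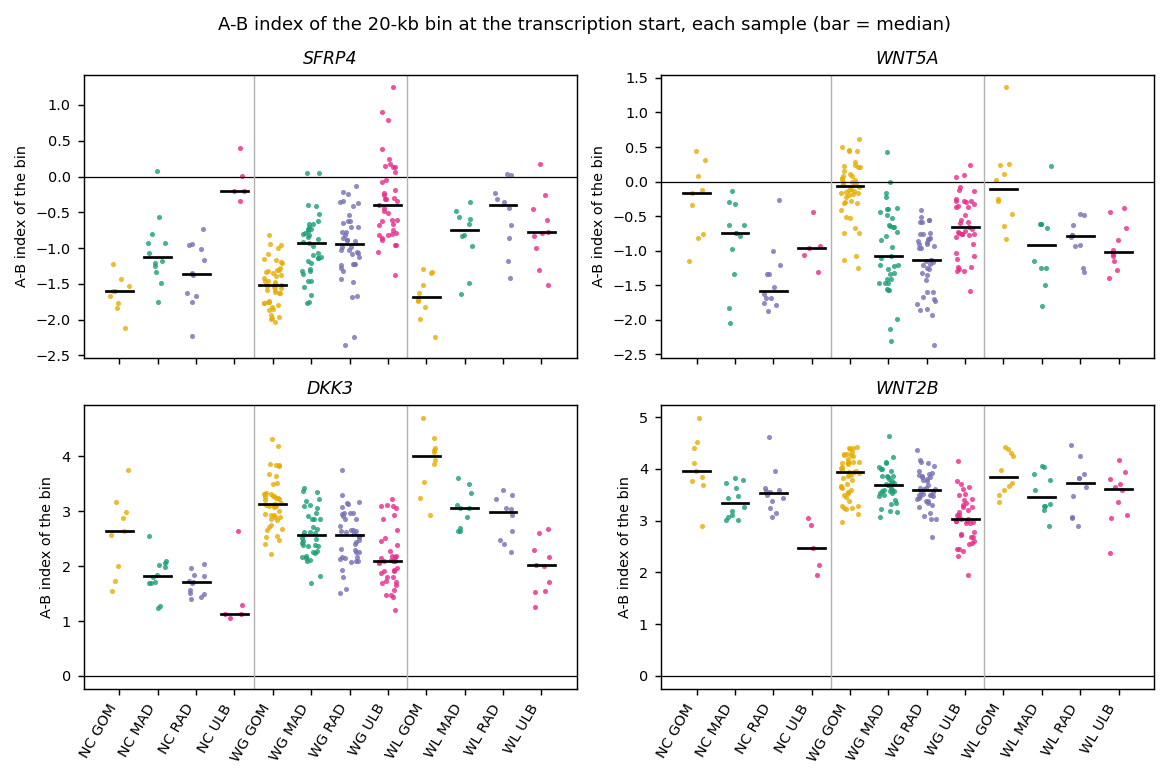
A-B index of the 20-kb bin at the start of SFRP4, WNT5A, DKK3 and WNT2B in each Hi-C sample of the 12 groups, with group medians as black bars. SFRP4 lies nearer to 0 in ULB than in GOM, and DKK3 and WNT2B lie above 0 throughout.

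H3K27ac, a histone mark of active promoters and enhancers, was given as lists of stitched enhancer regions in 18 tables, 1 for each NC and WL depot and 10 for subgroups of WG. Replicates were pooled in each table, except that NC MAD and 1 of the WG subgroups of RAD had only 1 H3K27ac library each. The lists were therefore compared without a test. Within 10 kb of the gene a region was listed in 18 tables for WNT11 and DKK3, 17 for WNT6 and WNT2B, 16 for WNT5A and SFRP1, 15 for DKK2, 11 for SFRP2, 10 for SFRP4 and 1 for WIF1. By comparison, 65.2 to 85.6% of 18725 genes had such a region in a table. WNT11 lay near a super-enhancer, an unusually strong region, in 9 tables and DKK3 in 1.

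The regions at SFRP4 were longest in ULB. In NC they covered 1.0 kb in GOM, 7.0 kb in MAD, 8.6 kb in RAD and 31.8 kb in ULB. In WL they covered 10.4 kb in RAD and 41.8 kb in ULB, and none was listed in GOM or MAD. In WG a region was listed in 4 of 10 tables, 12.2 kb long in 1 of the 2 tables of ULB, and in 0 of the 3 tables of GOM. At WNT6 the regions covered 63.6 kb in NC GOM, 2.0 kb in NC MAD, 68.0 kb in WL GOM and 68.4 kb in WL MAD. Those long regions also spanned WNT10A. The NC MAD value rests on 1 library. Regions were listed at WNT6 in 17 of 18 tables, and the lengths in the other depots and in WG are not given here.

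The genes whose levels followed each member most closely over all libraries were sought among 15068 detected PCGs. The closest to SFRP4 were GALNT5 (Spearman correlation 0.88), P4HA3 (0.84) and FAP (0.82), and those to WNT5A were ZFPM2 (0.87), THSD4 (0.87) and MEIS2 (0.85). DKK3 was followed by ALDH1A2 and RARRES2 (0.83 each), WNT2B by ADGRD1 (0.81), SFRP1 by PHGDH (0.78) and SFRP2 by SLIT3 (0.77). WNT11, DKK2 and WNT6 had looser companions, with 0.63 for RADIL, 0.59 for SLMAP and 0.57 for PELI2, the second closest to WNT6 after an unnamed gene with 0.58. Within the 12 groups the median correlation was lower for SFRP4 and GALNT5 (0.37) than for WNT5A and ZFPM2 (0.69). The libraries share depot, depth and class, so these values are descriptions.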

How the data were processed

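RNA was sequenced from the fat samples used here, from stranded libraries made after ribosomal RNA removal. Per the submitters' processing notes and the study's methods, the authors quantified transcripts with kallisto 0.43.0 and deposited estimated counts and TPM of PCGs. None of the counts above 0 was whole, and they were rounded here. The authors deposited the A-B index of 20-kb bins as a score for each Hi-C sample (from the Juicer pipeline, balanced and normalized between samples). They also deposited the signal of stitched H3K27ac regions, with replicates pooled where there was more than 1. The stitching distance was 12500 bp, 2000 bp around start sites were left out, and reads were aligned with BWA 0.7.15. Coordinates were on Sscrofa11.1, and the last bins matched that build within 1 bin on 18 of 18 autosomes.

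Groups were taken from the labels. The members and the gene lists were chosen with earlier results of these data known, and all 10 members are named in every comparison. Of the lists, up to 4 genes each were eligible, those called in the most comparisons, with ties broken by the mean absolute fold change. Columns of 9 RNA and 9 Hi-C samples matched no sample and were not used, and the files of single samples were not used.

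Each comparison was a separate fit of 2 groups with edgeR 4.0.16 (quasi-likelihood, TMM factors, R 4.3.3) over genes above 0.5 TPM in at least 80% of the libraries of 1 group, called where the Benjamini-Hochberg adjusted p was below 0.05 with a change of over 1.5-fold. Fold changes are log2, with the second group over the first, and SE from the F statistic. TPM were not tested. The interactions were fitted over 4 groups. The A-B index was tested with limma 3.58.1, with no limit on the size of the difference. Depth was 16791660 counts at the median, and 17.8% of the counts were 0. Scripts were tested on simulated data. Alternatives were DESeq2 1.42.0, other size factors, no filter, covariates, library classes, a replicate block and leaving libraries out. The labels do not say that a replicate number marks an animal across groups. Deviations of same-numbered libraries from their group means correlated above 0.1 in every pair in 4 of 18 depot and 0 of 12 diet comparisons. Between depots of WG their median correlation was 0.56 to 0.64, against -0.10 to -0.03 for libraries of other numbers, and 42 of 45 WG numbers fell in a single mitochondrial class, which the fits without the block do not use.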

Additional observations from a re-analysis of the deposited data

Results flagged for a closer look

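In groups of 4 to 10 libraries, the highest or lowest value was set against Dixon's limit. Of the 59 combinations of gene and group checked for TPM (WNT6 in WL RAD, which led to the choice of the genes, was left out), 11 held such a library, and 5 of 60 did for the A-B index. Chance gives about 5% only for normally distributed values, and the TPM were not transformed. All 11 TPM values were the highest of their group, and some WL numbers recur among them. The 5% is therefore no yardstick for these counts, and whether they exceed chance was not tested. WNT6 was high in WL number 3 in GOM (19.3 TPM, next 8.78) and MAD (30.3 TPM, next 11.7). WIF1 was also high in that library of MAD (1.996 TPM, next 0.798). WL number 4 stood high for SFRP1 in GOM (173 TPM, next 90.1) and MAD (243 TPM, next 138) and for SFRP2 in GOM (121 TPM, next 64.3). WL number 10 stood high for SFRP2 in RAD (100.4 TPM, next 24.4) and ULB (61.9 TPM, next 27.2) and for DKK3 in RAD (46.9 TPM, next 24.7). The others were SFRP4 in WL GOM number 2 (14.03 TPM, next 8.05) and WNT2B in WL ULB number 9 (0.963 TPM, next 0.629). For the A-B index they were WNT5A in WL GOM number 9 (1.36, next 0.26), WNT6 in WL MAD number 10 (2.16, next 2.99), SFRP2 in NC GOM number 3 (2.67, next 1.82), DKK3 in NC ULB number 2 (2.64, next 1.299) and WIF1 in WL ULB number 5 (-2.99, next -2.21).

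Of 80 tests of whether a change with diet differed between depots, 5 had an adjusted p below 0.05 over all genes (edgeR). From NC to WG the change of WNT2B was 1.34 ± 0.31 higher in MAD than in GOM and that in RAD stood at -1.47 ± 0.34 relative to MAD. The change of SFRP4 in ULB stood at -1.49 ± 0.32 relative to MAD. From WG to WL the change in MAD relative to GOM was -1.65 ± 0.31 for WNT2B and -0.96 ± 0.27 for DKK3. With the mitochondrial class as a covariate all 5 stayed below 0.05.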

How the results depend on the processing

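Under the alternatives, results of single genes kept their direction and call for 1517 expression values and 369 A-B values. Of the other expression values 158 lost the call, 76 gained it and 3 reversed. The calls over the 10 genes between depots were 11 in NC and 18 in WL (from 23 and 28) without libraries under 90% PCG TPM, and 0 for MAD against RAD of NC within poor libraries, where 4 of 9 genes had an unadjusted p below 0.05 with 3 libraries a group. From NC to WG the 12 calls became 7 with the PCG share as a covariate, 5 without low-share libraries and 3 with the replicate block, and 4 within poor libraries against 7 over the same comparisons. From WG to WL the 9 calls became 2, 4 and 1 under the same covariate, omission and block. From NC to WL the 5 calls became 8 with DESeq2, 8 with the covariate and 3 without low-share libraries. The 25 A-B calls between diets became 10 after quantile normalization and 7 with the block. The causes were not tested, but the omission and the block also leave fewer libraries. The diet groups held different pigs, so a number shared between diets pairs no animal. Between WG and WL the block kept 10 libraries of each diet in GOM and 9 in MAD and in ULB. With the block WNT6 was called from WG to WL in none of GOM, MAD and ULB (adjusted p = 0.0916, 0.0881 and 0.169, edgeR), and over the other alternatives, apart from leaving out single libraries, its adjusted p ran up to 0.0116 in GOM, 0.0768 in MAD and 0.0621 in ULB. Without low-share libraries WNT6 fell below the limit on low values in MAD. With the replicate block the depot calls were 33 in WG, 26 in NC and 31 in WL, and every library correlated best with its own number in 0 of 30 comparisons. Between depots of WG the libraries that did so ran from 11 of 33 (RAD and ULB) to 24 of 36 (GOM and MAD).

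Reversed values were 0.27 for WNT2B from NC to WG in RAD within poor libraries, -0.20 for DKK3 and -0.16 for WNT2B from WG to WL in GOM without low-share libraries, and -0.015 for the A-B index of WNT2B from NC to WG in MAD after quantile normalization. Leaving out 1 NC ULB or 1 WL library in turn gave 19 to 22 calls between depots in NC, 26 to 30 in WL, 11 to 12 from NC to WG, 6 to 11 from WG to WL, 4 to 7 from NC to WL, 63 to 66 A-B calls between depots and 24 to 29 between diets. Rescaling TPM without mitochondrial genes moved 17 of 120 group means by more than 1 SD. Class, the PCG share and added time move with diet, WNT6 and WIF1 rest on few reads in most groups, and the tests cover the spread between libraries only.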
